A study of Mus musculus with 242 samples.

Results

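Interferon-stimulated genes are the genes that cells switch on when interferons bind their receptors. A list of 36 such genes was followed here in mouse liver, and 34 of them could be measured, out of 18193 genes on the array. Each gene was read by 1 probe set (a group of short probes for 1 transcript), the one whose mean signal across the arrays was highest. Isg15 and Ifi44 had no probe set of their own and are named only.

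Each of 242 single-colour Affymetrix Mouse430_2 arrays held biotin-labelled liver RNA of 1 adult female B6C3F1 mouse, an F1 hybrid strain. The mice were 5 weeks old at the start, received 1 of 26 chemicals or a vehicle for 13 weeks, and were 18 weeks old at harvest, when the right, caudate and median lobes were minced together. The arrays formed 46 treated groups and 14 vehicle control sets (6 groups of 3 mice, 46 of 4 and 8 of 5), and 59 of the arrays were controls. The arrays were sorted into 4 runs with the help of the run codes in their labels. These were named run A (54 arrays), run B (36), run C (18) and run D (134). Run A joins arrays of more than 1 run code, a grouping made here and not given in the labels. Its codes are spread unevenly over its groups. Most malathion arrays differ in code from most of their controls, and the Diazinon group holds only 1 code. Each treated group was compared with vehicle controls of its own run, paired through the animal numbers because the labels do not state the pairing.

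In run A, corn oil gavage with set CCO2 as control carried 1,2-Dibromoethane 62 mg/kg, Benzene 100 mg/kg and Coumarin 200 mg/kg, and gavage in distilled water with set WCO1 carried 2-Chloromethylpyridine hydrochloride 250 mg/kg and N-Methylolacrylamide 50 mg/kg. Rodent chow with set FCO2 as control carried 2,2-Bis(bromomethyl)-1,3-propanediol 1250 ppm, 4-Nitroanthranilic acid 10000 ppm, Diazinon 200 ppm and Malathion 14800 ppm. Run A also held control set CCO3, whose vehicle is given as distilled water although its code matches the corn oil sets, so it was set against no treated group. In run B, corn oil with set CCO4 carried Iodoform 93 mg/kg and Trichlorofluoromethane 3925 mg/kg, and chow with set FCO1 carried 1-Amino-2,4-dibromoanthraquinone 20000 ppm and Tris(2,3-dibromopropyl)phosphate 1000 ppm. Inhalation with air set ACO1 covered Tetrafluoroethylene 1250 ppm and Tetrafluororethane 50000 ppm. In run C, corn oil with set OILC carried 2,3-Benzofuran 240 mg/kg, and chow with set CHOWC carried Pentachloronitrobenzene 8187 ppm, 1,5-Naphthalenediamine 2000 ppm and N-(1-naphthyl)ethylenediamine dihydrochloride 2000 ppm. In run D, 5 chemicals had 5 doses each. 1,4-Dichlorobenzene (100, 300, 400, 500 and 600 mg/kg, set CCO5) and 1,2,3-Trichloropropane (2, 6, 20, 40 and 60 mg/kg, set CCO6) were given in corn oil. Methylene chloride (100, 500, 2000, 3000 and 4000 ppm, set ACO4), naphthalene (0.5, 3, 10, 20 and 30 ppm, set ACO5) and propylene glycol mono-t-butyl ether (25, 75, 300, 800 and 1200 ppm, set ACO3) were inhaled, as were ethylene oxide 100 ppm (set ACO4) and vanadium pentoxide 2 mg/m3 (set ACO3). Chow was available on 7 days of each week, while gavage and inhalation took place on 5.

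Type I interferons act through kinases bound to their receptor, which activate the complex ISGF3, with STAT2 and IRF9 among its subunits. ISGF3 binds the interferon-stimulated response element (ISRE) in promoters, whereas interferon gamma acts on the gamma-activated sequence (GAS). In the liver, hepatocytes and Kupffer cells, the resident macrophages, both respond to interferon, and a low tonic expression is known in uninfected tissue.

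The list holds the transcription factors Stat2, Irf9, Irf7 and Irf1, the nucleic acid sensors Ifih1 (MDA5), Dhx58 (LGP2) and Zbp1, and the Ifit and Oas families, which bind foreign RNA or make the activator of RNase L. It also holds the antiviral proteins Mx1, Rsad2 (viperin) and Bst2 (tetherin), and Usp18, which removes ISG15 from proteins and damps the receptor. The GTPases Gbp2, Gbp3, Igtp and Irgm1 and the antigen processing genes Psmb8, Psmb9 (immunoproteasome subunits) and Tap1 (peptide transporter) are known as targets of interferon gamma. Cxcl10 is a T cell chemoattractant. The others are Ifi27l2a, Ifi27l2b, Ifi35, Trim30a, Xaf1, Rtp4 and Parp14.

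Promoter sequences of members are shown because many members rose together with 1 chemical, pentachloronitrobenzene. RefSeq windows (build GRCm38.p6, 250 bases before to 50 after a gene's annotated start) were given for 27 of the 36 genes. The ISRE core (GAAA, any 2 bases, GAAA), searched on both strands, was in the windows of 15 of the 27 genes (55.6%), against 1079 of 27025 genes (3.99%). The GAS letters TTCNNNGAA, which read alike on both strands and can overlap an ISRE, were in 7 of the 27 (25.9%), against 2582 of 27025 genes (9.55%). A match is a description of the letters in the window and not a measured binding site. The genes were listed as interferon-stimulated, so a share above that of all genes was likely beforehand and says nothing about pentachloronitrobenzene. Of members not called with that chemical, Stat2, Oas3, Bst2, Gbp2, Irgm1, Cxcl10 and Trim30a held the ISRE core too. Irf9, Irf1, Ifit2, Oasl2, Psmb8, Psmb9 and Xaf1 did not. The 5 windows below belong to members that rose with pentachloronitrobenzene and hold the core before the start. Each runs 5′ to 3′ on the gene's strand over the 250 bases before the start, with the ISRE core (read on either strand) in capitals.
Ifit1: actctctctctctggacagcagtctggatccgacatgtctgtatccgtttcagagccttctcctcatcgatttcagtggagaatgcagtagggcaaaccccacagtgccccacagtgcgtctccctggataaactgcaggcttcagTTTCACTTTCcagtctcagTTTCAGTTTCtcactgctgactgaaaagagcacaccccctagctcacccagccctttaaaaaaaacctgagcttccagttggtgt
Ifit3: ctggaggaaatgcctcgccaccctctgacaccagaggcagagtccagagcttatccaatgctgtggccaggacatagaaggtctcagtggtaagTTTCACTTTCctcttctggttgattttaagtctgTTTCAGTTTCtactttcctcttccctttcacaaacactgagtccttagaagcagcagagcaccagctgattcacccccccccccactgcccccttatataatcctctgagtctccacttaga
Oas1a: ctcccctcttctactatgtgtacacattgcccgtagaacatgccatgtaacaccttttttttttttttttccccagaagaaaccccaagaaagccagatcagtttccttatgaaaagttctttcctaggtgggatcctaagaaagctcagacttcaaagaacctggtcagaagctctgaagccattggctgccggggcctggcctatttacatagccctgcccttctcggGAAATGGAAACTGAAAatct
Rsad2: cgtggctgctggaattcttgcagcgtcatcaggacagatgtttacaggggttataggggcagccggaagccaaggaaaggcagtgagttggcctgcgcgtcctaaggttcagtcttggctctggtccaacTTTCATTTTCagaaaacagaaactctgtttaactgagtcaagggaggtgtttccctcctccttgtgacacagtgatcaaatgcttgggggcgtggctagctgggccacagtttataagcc
Igtp: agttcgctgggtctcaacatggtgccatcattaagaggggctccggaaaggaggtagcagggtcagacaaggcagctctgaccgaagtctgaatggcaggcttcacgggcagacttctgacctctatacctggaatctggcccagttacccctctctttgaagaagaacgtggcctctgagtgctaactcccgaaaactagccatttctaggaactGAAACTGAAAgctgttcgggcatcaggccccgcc
Ifit1 lies at chr19:34640639-34640888 (plus strand), with cores that begin 104 and 85 bases before the start. Ifit3 lies at chr19:34583279-34583528 (plus strand), with cores at 156 and 122 bases. Oas1a lies at chr5:120907526-120907775 (minus strand), with 2 overlapping cores at 20 and 14 bases. Rsad2 lies at chr12:26456453-26456702 (minus strand) with 1 core at 120 bases, and Igtp at chr11:58199306-58199555 (plus strand) with 1 core at 34 bases. Gbp3 had 2 overlapping cores before 1 of its annotated starts, and Tap1, Oasl1, Irf7 and Ifi35, which also rose, held no core in their windows. Ifih1, another that rose, had 0 cores before its start and 1 in its whole window. For Usp18 and Rtp4, which rose as well, no window was given.

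The level of the members varied from mouse to mouse, in control livers too. Values are log2 of the probe set signal plus a pseudocount of 17.3, so folds of dim genes are understated. The mean over the 34 members, called the member level here, had a median of 8.94 over the 59 control arrays (lowest 8.33, highest 9.99) and of 8.85 over all 242 arrays (8.06 to 10.74). Within control sets the members' median SD was 0.39, against 0.44 over all genes. Among genes brighter than the median gene, which hold 28 members, the members' median SD was 0.36 against 0.30, and 21 of the 28 were above it. The members that varied most within control sets were Ifit2 (SD 0.86), Oas2 (0.77), Oas3 (0.64), Gbp3 (0.62), Gbp2 (0.61) and Ifi27l2b (0.50), several of them dim. One control mouse, CCO3 replicate 2, carried part of this spread. Without it the members' median SD was 0.34 against 0.43 over all genes, and the SD of Ifi27l2a fell from 0.50 to 0.34.

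**Figure D1:**
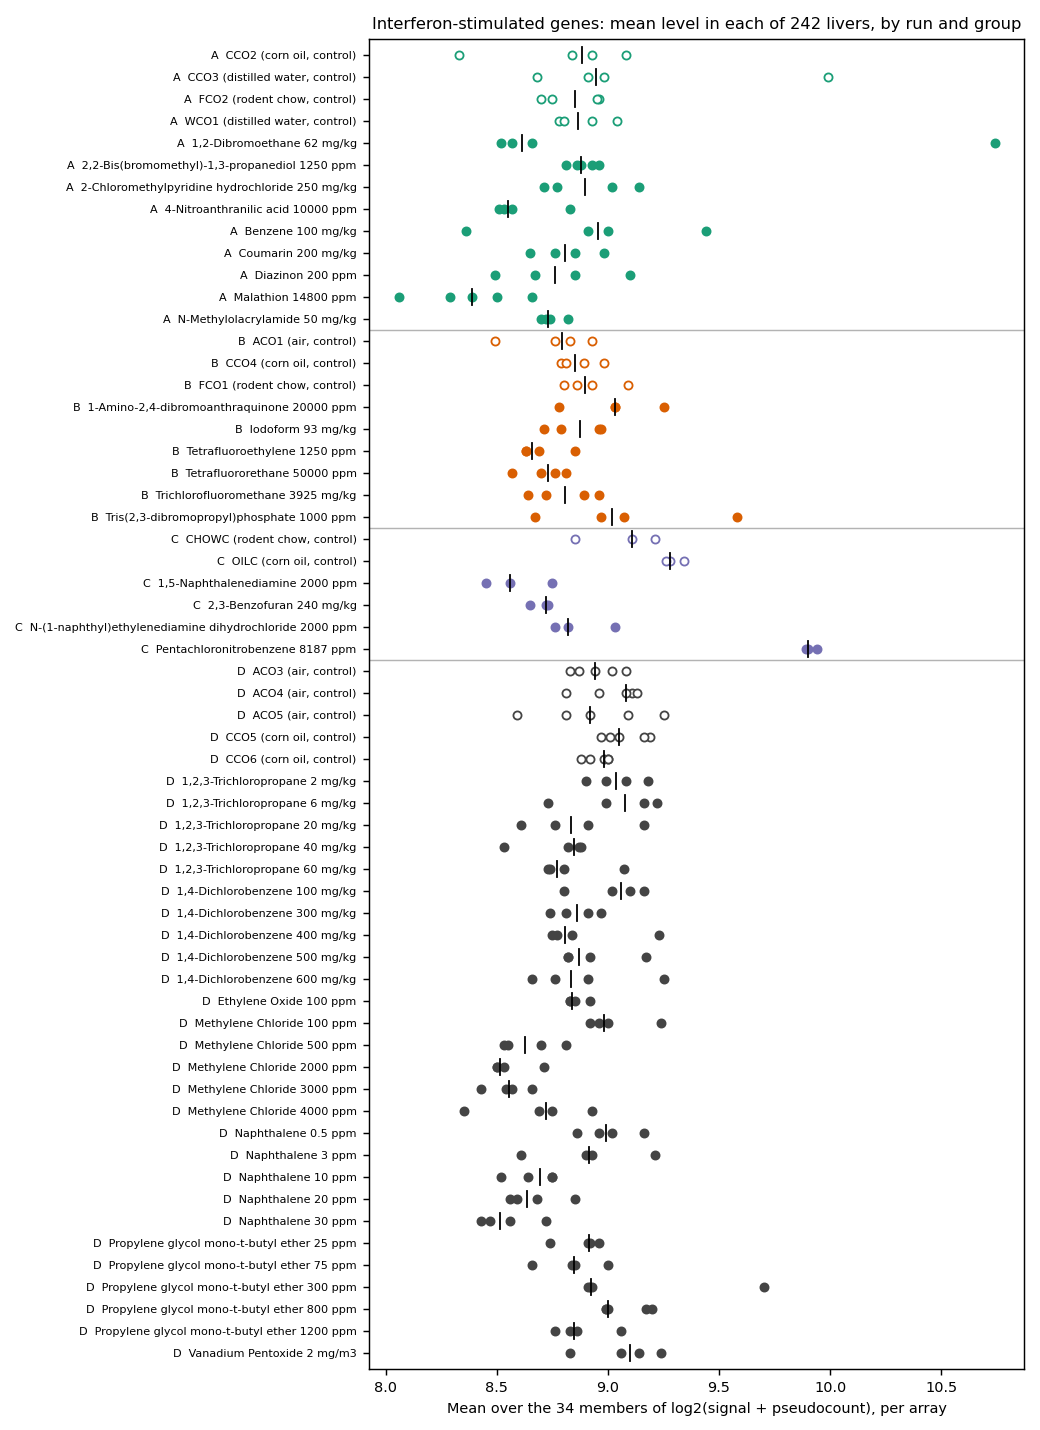
Mean log2(signal + pseudocount) over the 34 members (x axis) in each of the 242 livers, by run and group (y axis); open points are control arrays, filled points treated arrays, and vertical ticks group medians. The 3 pentachloronitrobenzene livers lie at 9.89 to 9.94, above all other arrays of run C, and single livers stand apart in the 1,2-Dibromoethane (10.74), CCO3 (9.99) and propylene glycol mono-t-butyl ether 300 ppm (9.70) groups.

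Members tended to vary together between mice of a group. Over the deviations of 242 arrays from their group means, the 561 pairs of members had a median Pearson r of 0.26. Of these pairs 500 were above 0, and the highest was Psmb8 with Psmb9 (0.87). Both genes lie on chromosome 17, with Tap1 between them. Without the 4 arrays of highest member level outside pentachloronitrobenzene the median r was 0.14 over 238 arrays. Pairs above 0 then numbered 417, and pairs above 0.5 fell from 83 to 39. The pairs share arrays and scaling, and no pairs of other genes are given beside them, so these values are a description only.

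No member was called between control sets of the same vehicle and run. In limma's moderated test (adjusted over all 18193 genes by Benjamini-Hochberg, called at an adjusted p under 0.05 and a fold of at least 1.5) none of the 34 members was called in any of the 5 comparisons between such sets, where at most 0.11% of all genes were lower and 0.0165% higher (ACO5 against ACO4). At an unadjusted p under 0.05, 6 members passed between CCO6 and CCO5, 2 between ACO5 and ACO4, 1 between ACO5 and ACO3, 1 between CCO3 and WCO1 (alike in vehicle only if the label of CCO3 holds), and 0 between ACO4 and ACO3. Such counts, here and below, are given without the share of all genes at that cutoff, so they are no result about the members. Between vehicles, limma's F test called 8 of the 34 members in run B. This is a smaller share than the 27.5% of all genes called there, so the members do not stand out. No member was called in runs A, C and D (0.022%, 0.0% and 1.6% of genes), where 1, 3 and 5 members passed an unadjusted p under 0.05. Stat2 was the clearest of the 8, at 8.54, 8.61, 8.38 and 8.67 in the ACO1 livers, 9.65, 9.51, 9.35 and 9.60 in CCO4, and 9.15, 9.18, 9.33 and 9.61 in FCO1 (limma F test, adjusted p = 0.00068). Air controls lay below both other sets without overlap. Ifih1, Irgm1, Ifit1, Ifi35, Gbp3, Trim30a and Ifit3 had adjusted p values of 0.0023 to 0.049 in the same limma F test, and Ifi35 alone of these was highest in air. Vehicle, route and control set differ together there and cannot be told apart.

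Over the 46 treated groups, members were called 17 times as higher and 38 times as lower, out of 1564 tests. This was 1.09% of member tests higher and 2.43% lower, against 0.331% and 0.42% of all gene tests. Calls came from 13 groups and 9 chemicals, with 1 chemical in which many members rose, pentachloronitrobenzene, and falls in 7 others. In 28 members there was at least 1 call. Irf1, Ifit2, Oas2, Mx1, Bst2 and Cxcl10 were called in no treated group against its controls. Ifit1 was called most often, higher in 1 group and lower in 5.

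**Figure D2:**
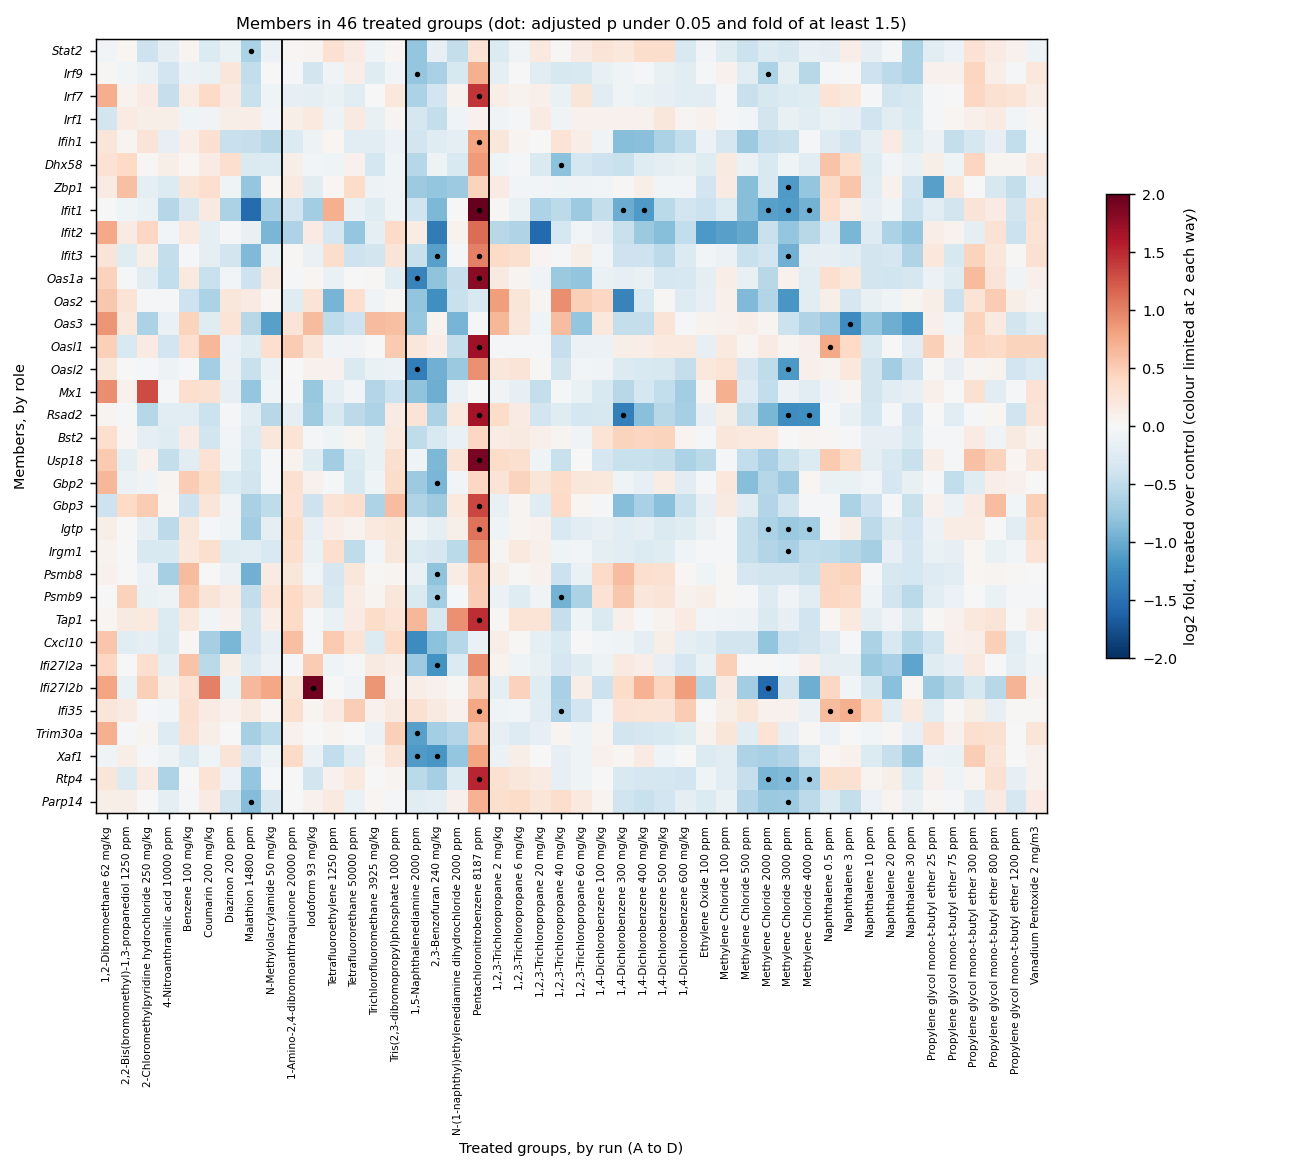
Log2 fold of each of the 34 members (y axis, by role) in each of the 46 treated groups over its control set (x axis, by run A to D), with colour limited at 2 each way and a dot for a call. Red is higher and blue lower in the treated group; the pentachloronitrobenzene column holds 13 dots, all red, and the dots of the methylene chloride columns are all blue.

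Pentachloronitrobenzene, a chlorinated fungicide, raised more members than any other chemical. At 8187 ppm in chow (3 mice against 3 of set CHOWC), 13 of 34 members were higher and none lower, where 0.225% of all genes were higher and 0.22% lower. Only 41 genes were higher in this comparison, so the members made up 13 of them. The median log2 change was 0.79 over the members and -0.06 over all genes, and 23 members did not overlap between the groups (all higher), against 6.81% of all genes. The member level was 9.89 to 9.94 with pentachloronitrobenzene and 8.85 to 9.21 in the controls. The shift of the list as a whole was known when the genes were chosen, and no test is added for it here.

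Among the Ifit and Oas genes, Ifit1, which binds viral RNA lacking a host cap mark, changed most. It stood at 11.08, 10.70 and 10.68 against 8.85, 8.35 and 8.04 in the controls, a difference of 2.41 ± 0.34 (log2, SE, n = 3 each; 5.30-fold; limma adjusted p = 0.0088). The groups lay far apart. Oas1a, an oligoadenylate synthetase, was at 10.74, 10.75 and 10.64 against 8.97, 9.01 and 8.75 (1.80 ± 0.21, 3.47-fold, limma adjusted p = 0.0049). Ifit3, a partner of Ifit1, was at 10.19, 10.35 and 10.26 against 9.44, 8.98 and 9.36 (1.00 ± 0.13, 2.01-fold, limma adjusted p = 0.0063). In both genes every treated liver was above every control. Oasl1, known in mice as a brake on Irf7 translation, was at 9.88, 9.48 and 9.67 against 8.15, 7.68 and 8.11 (1.69 ± 0.25, limma adjusted p = 0.012). Oasl2 was 0.91 ± 0.31 higher with an adjusted p of 0.27 in limma, and Ifit2 lay at 7.54, 7.55 and 7.65 against controls of 7.65, 7.08 and 4.69. Oas2 (-0.30) and Oas3 (-0.02), both dim, were not called.

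Usp18, the negative regulator of the receptor, was at 10.53, 10.71 and 10.93 against 9.07, 8.77 and 8.62 (1.90 ± 0.24, 3.74-fold, limma adjusted p = 0.006). Rtp4, an interferon-induced protein, was at 11.86, 11.63 and 11.76 against 10.41, 10.29 and 9.95 (1.53 ± 0.18, 2.90-fold, limma adjusted p = 0.0049). Both had the 3 treated livers more than 1 log2 unit above the controls. A dimmer probe set of Rtp4 differed by 0.57. Rsad2, an enzyme that makes a chain terminator of viral polymerases, was at 11.18, 11.33 and 11.02 against 9.76, 9.66 and 9.10 (1.67 ± 0.27, limma adjusted p = 0.02), and its other 2 probe sets differed by 1.27 and 1.35. Mx1 did not differ (0.00 ± 0.60), and Bst2 was 0.41 ± 0.10 higher below the fold threshold with a limma adjusted p of 0.13.

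Among the sensors and factors, Ifih1 was at 11.61, 11.61 and 11.64 against 10.87, 10.83 and 10.80 (0.79 ± 0.11, 1.73-fold, limma adjusted p = 0.0079), and Irf7 at 10.67, 11.46 and 11.06 against 9.66, 9.79 and 9.45 (1.43 ± 0.24, limma adjusted p = 0.021). Irf7 drives the second wave of interferon genes. Neither gene overlapped between the groups. Dhx58 (0.85) and Irf9 (0.71) were not called in limma (adjusted p = 0.11 and 0.13), nor were Stat2 (0.28), Irf1 (0.08) and Zbp1 (0.44). Dimmer probe sets differed by 2.02 in Zbp1, -0.11 and 0.95 in Dhx58 and 0.22 in Stat2. Of the GTPases, Igtp (1.08 ± 0.20, limma adjusted p = 0.034) and Gbp3 (1.33 ± 0.25, 0.035) rose, and Irgm1 (0.89, 0.076) and Gbp2 (0.42, 0.48) were not called. Ifi35 rose by 0.77 ± 0.13 (limma adjusted p = 0.023), and its dimmer probe sets differed by 0.67 and 0.12. Xaf1 (0.79), Parp14 (0.69), Ifi27l2a (0.93), Trim30a (0.50), Ifi27l2b (0.47) and the chemokine Cxcl10 (-0.13) were not called. The dimmer probe sets of Xaf1, Parp14 and Trim30a differed by -1.75, -0.15 and 0.56.

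Tap1 was at 9.14, 9.26 and 9.20 against 7.87, 7.34 and 7.97 (1.47 ± 0.21, 2.78-fold, limma adjusted p = 0.0087). Its 3 other, dimmer probe sets differed by -1.02, -1.69 and 0.34, and the mean over all 4 was -0.22. Tap1 was also above all chow controls in the livers of the other 2 chow chemicals, at 8.45, 8.38 and 8.35 with 1,5-naphthalenediamine and 8.76, 8.72 and 8.47 with N-(1-naphthyl)ethylenediamine dihydrochloride. The immunoproteasome genes Psmb8 (0.50) and Psmb9 (0.49) were higher without overlap but were not called in limma (adjusted p = 0.21 and 0.28).

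Of 50 further interferon-stimulated genes measured (of 58 listed), 3 rose and none fell, with a median of 0.36 and 39 above 0. These were Gbp7 (1.05 ± 0.15, limma adjusted p = 0.012), the ADP-ribosyltransferase Parp9 (0.78 ± 0.14, 0.023) and the GTPase Irgm2 (1.01 ± 0.19, 0.040). No gene passed among 11 interferons and receptors, 18 signalling genes, 7 negative regulators and 14 antigen presentation genes, although all 14 of the last were above 0 (median 0.19). In the lists of T and NK cells, B and plasma cells, Kupffer cells and macrophages, monocytes and dendritic cells, neutrophils, hepatocytes and acute phase genes none passed. The mean level of 12 Kupffer cell markers was 9.77 to 10.41 with pentachloronitrobenzene and 9.94 to 10.25 in controls, of 5 neutrophil markers 6.59 to 7.48 and 6.78 to 7.52. In RNA of whole liver, fewer cells of a type and less RNA per cell cannot be told apart. RNA integrity numbers were 8.4 to 8.8 with pentachloronitrobenzene and 8.8 to 9.1 in controls, and their part was not tested.

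Set directly against the other chow chemicals of run C, pentachloronitrobenzene was higher in 21 members over 1,5-naphthalenediamine (background 0.473% of genes higher) and in 15 over N-(1-naphthyl)ethylenediamine dihydrochloride (0.352%), and lower in none. All 34 members were above 0 in both comparisons, with medians of 1.16 and 1.03 (all genes 0.03 and -0.03). Oas1a had the lowest adjusted p in the first and shared it with Rtp4 in the second. It stood at 7.25, 8.08 and 7.41 with 1,5-naphthalenediamine (a difference of 3.13 ± 0.21, 8.74-fold, limma adjusted p = 7e-06) and at 8.42, 8.63 and 8.31 with the ethylenediamine (2.25, 4.77-fold, limma adjusted p = 0.00061). Xaf1, a pro-apoptotic antagonist of XIAP, was at 10.45, 10.46 and 10.57 against 8.64, 8.43 and 8.64 with 1,5-naphthalenediamine (1.92, limma adjusted p = 0.00014). Rtp4 stood at 10.03, 9.52 and 9.48 with 1,5-naphthalenediamine (2.08, limma adjusted p = 7e-05), Ifit3 at 8.86, 8.79 and 8.82 (1.44, 7.7e-05) and Ifih1 at 10.53, 10.50 and 10.36 (1.16, 7.7e-05). No liver of the 2 groups overlapped in any of these genes. Bst2, which tethers budding virions and was not called against chow controls, was at 12.52, 12.59 and 12.63 against 11.74, 11.56 and 11.67 (0.92, limma adjusted p = 0.00059). Irf7 (2.07), Ifit1 (2.81), Usp18 (1.99), Irf9 (1.49), Gbp3 (1.93), Oasl2 (2.29), Dhx58 (1.43), Ifi27l2a (1.65), Oasl1 (1.47), Trim30a (1.59), Igtp (1.17), Irgm1 (1.16), Rsad2 (1.40), Gbp2 (1.14) and Parp14 (0.91) were also higher, with limma adjusted p values of 0.00069 to 0.025. Of these 21 members Oas1a, Xaf1, Oasl2, Irf9 and Trim30a were at the same time lower with 1,5-naphthalenediamine than in chow controls.

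Over N-(1-naphthyl)ethylenediamine dihydrochloride, Rtp4 was higher by 1.80 (9.84, 10.09 and 9.91 with that chemical, limma adjusted p = 0.00061), Ifih1 by 0.97 (10.75, 10.68 and 10.51, 0.00092) and Oasl1 by 2.17 (6.97, 7.79 and 7.74, 0.0012). All 3 genes were without overlap. Xaf1 (1.56), Ifit3 (1.03), Irgm1 (1.43), Ifit1 (2.39), Usp18 (1.65) and Irf7 (1.36) were the next by adjusted p in limma (0.0015 to 0.025). The 2 comparisons share the pentachloronitrobenzene livers.

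Leaving out 1 array at a time gave 8 to 11 calls against chow controls, with Ifih1, Ifit1, Ifit3, Oas1a, Rtp4, Tap1 and Usp18 called in all 6 such fits. With the 6 arrays fitted alone, where 3 livers a group give the only estimate of spread, no member was called, while 23 had an unadjusted p under 0.05. No member was called either with 2 dim arrays of the series (1 of them in run C, a 1,5-naphthalenediamine liver) left at their deposited scale, with 10 at an unadjusted p under 0.05. The share of all genes at that cutoff is not given, so these counts are no result about the members.

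**Figure D3:**
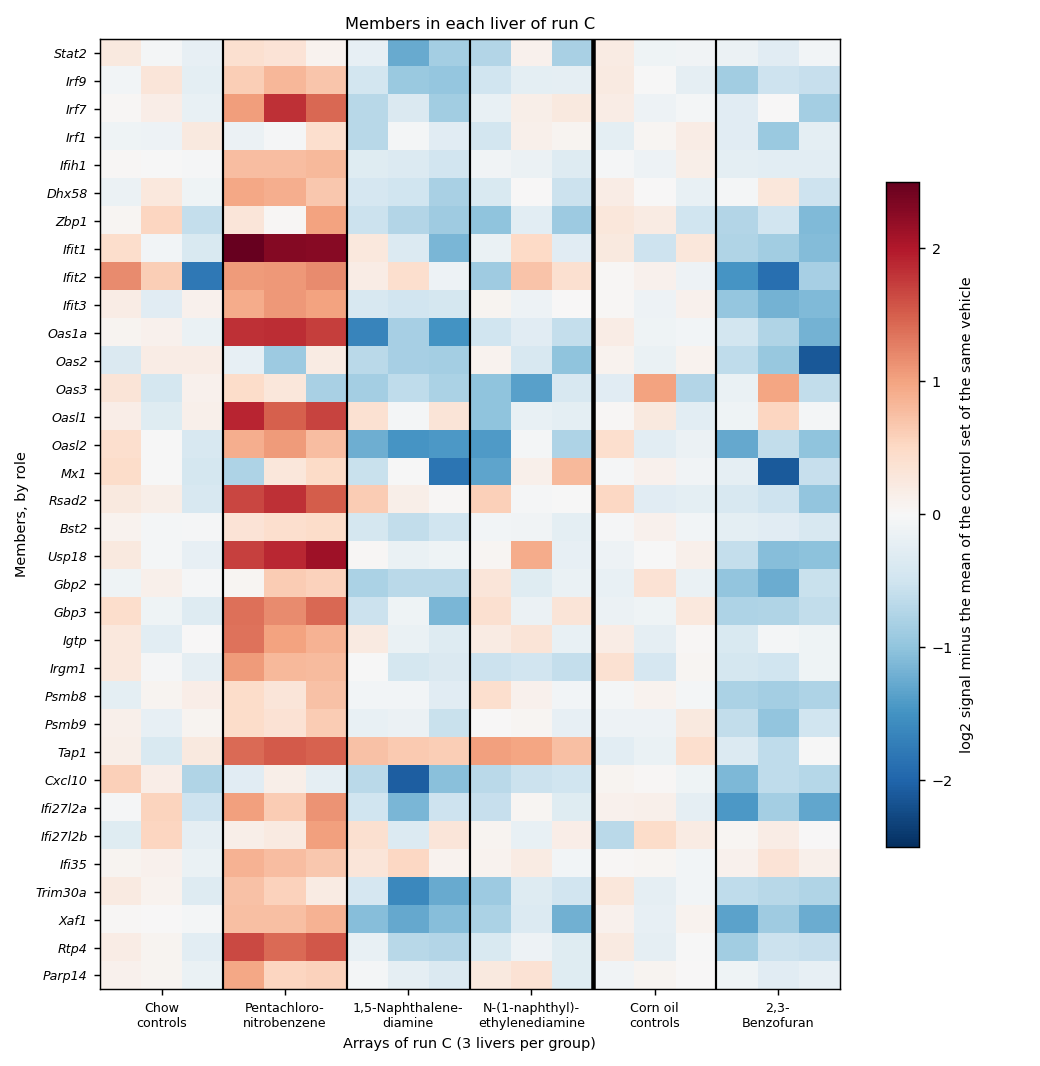
Log2 signal of the 34 members (y axis, by role) in the 18 livers of run C (x axis, 3 per group), as the difference from the mean of the control set of the same vehicle; red is higher and blue lower. The pentachloronitrobenzene columns are red for most members, with Ifit1, Usp18 and Oas1a darkest, and the 1,5-naphthalenediamine and 2,3-benzofuran columns are mostly blue.

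1,5-Naphthalenediamine, an aromatic amine dye intermediate, lowered a few members at 2000 ppm in chow. Of the 34 members, 5 were lower and none higher, where 2.19% of genes were lower and 1.21% higher. The median was -0.53 over the members and -0.12 over all genes. Non-overlap ran to 13 members lower (16.4% of genes) and Tap1 higher. Oas1a stood at 7.25, 8.08 and 7.41 against 8.97, 9.01 and 8.75 (-1.33 ± 0.21, n = 3 each, limma adjusted p = 0.0048), and Xaf1 at 8.64, 8.43 and 8.64 against 9.73, 9.72 and 9.66 (-1.13 ± 0.19, 0.0058). Both pairs of groups were apart. Oasl2 was at 6.95, 6.71 and 6.75 against 8.60, 8.17 and 7.77 (-1.38 ± 0.31, limma adjusted p = 0.026), and Irf9, the DNA-binding subunit of ISGF3, at 9.33, 8.85 and 8.82 against 9.72, 10.08 and 9.54 (-0.78 ± 0.18, 0.031). Trim30a was lower by -1.09 ± 0.27 (limma adjusted p = 0.04).

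Of 50 other interferon-stimulated genes, 3 fell with 1,5-naphthalenediamine, the chemokine Cxcl9 (-1.34 ± 0.21, limma adjusted p = 0.0038), Gbp6 (-1.29 ± 0.26, 0.017) and Herc6 (-1.01 ± 0.23, 0.028). Kupffer cell markers were lower too, at a mean level of 9.44 to 9.87 against 9.94 to 10.25, with 1 of 12 above 0 and none called, and their part was not tested. Replicate 2 of this group had been brought to the common scale by a factor of 5.915, and without it 2 members were called. Leaving out each array in turn gave 2 to 8 calls, and the 6 arrays fitted alone gave none, with 16 at an unadjusted p under 0.05.

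With N-(1-naphthyl)ethylenediamine dihydrochloride, a reagent for azo dyes, no member was called at 2000 ppm by limma (background 0.236% higher, 0.456% lower), with 5 at an unadjusted p under 0.05. Tap1 (0.92, adjusted p = 0.055) and Xaf1 (-0.77, 0.066) came nearest in limma.

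2,3-Benzofuran at 240 mg/kg lowered Ifit3, Xaf1, Psmb8, Ifi27l2a, Gbp2 and Psmb9. Of the 34 members, 6 were lower and none higher (1.92% of genes lower, 1.35% higher), with a median of -0.67 against -0.12 over all genes. In 23 members the groups did not overlap and the treated livers were lower (17.3% of genes). The member level was 8.65 to 8.73 in the treated livers and 9.26 to 9.34 in their corn oil set OILC. Chow set CHOWC of the same run was at 8.85 to 9.21. OILC had the highest median of all control sets (9.28, against 8.94 over all control arrays). How much of the fall lies in this control set was not tested. Ifit3 stood at 8.62, 8.39 and 8.48 against 9.61, 9.45 and 9.68 in the corn oil set OILC (-1.08 ± 0.13, n = 3 each, limma adjusted p = 0.00044), and Xaf1 at 8.52, 8.97 and 8.61 against 9.97, 9.66 and 9.94 (-1.16 ± 0.19, 0.0041). Psmb8 was at 9.88, 9.82 and 9.91 against 10.63, 10.77 and 10.63 (-0.80 ± 0.15, 1.75-fold lower, limma adjusted p = 0.011). The 3 treated livers were close to each other and below every control in each of these genes. Ifi27l2a was at 7.94, 8.53 and 8.07 against 9.48, 9.50 and 9.14 (-1.19 ± 0.28, limma adjusted p = 0.029). Gbp2 (-0.92 ± 0.22, 0.032) and Psmb9 (-0.69 ± 0.17, 0.036) were also lower in limma.

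Beside the members, 7 of 50 other interferon-stimulated genes fell with 2,3-benzofuran, led by Cxcl9 (-1.33 ± 0.21, limma adjusted p = 0.0035), Gbp7 (-0.85 ± 0.15, 0.009), Slfn5 (-1.30 ± 0.24, 0.0098) and Ifitm3 (-0.59 ± 0.11, 0.011). Markers of macrophages moved the same way: the mean level of 12 Kupffer cell markers was 9.39 to 10.03 against 9.98 to 10.66, 0 of 12 were above 0 and Csf1r, the macrophage growth factor receptor, was lower (-0.65 ± 0.14, limma adjusted p = 0.024). The neutrophil receptor Cxcr2 (-1.33 ± 0.29, 0.023) and the acute phase genes Saa3 (-1.32 ± 0.24, 0.0079) and Hp (-0.62 ± 0.11, 0.0092) fell in limma as well. The part of these cells in the result was not tested. Leaving out 1 array gave 2 to 5 calls, with Ifit3 and Xaf1 in all 6 such fits. The 6 arrays alone gave none (18 at an unadjusted p under 0.05), and so did the values at their deposited scale.

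Inhaled methylene chloride, a chlorinated solvent, lowered members over its doses. The linear trend over control and 5 doses (given as the fitted change from control to the highest dose) was downward in 33 of 34 members and passed in 7, all lower, where 2.07% of genes had a falling and 1.43% a rising trend. Against air set ACO4 no member was called at 100 or 500 ppm (background 0.0055% and 0.291% lower), 5 were lower at 2000 ppm (0.462%), 9 at 3000 ppm (1.53%) and 4 at 4000 ppm (1.74%), and none was higher at any dose. At 100 ppm 1 member and at 500 ppm 13 members had an unadjusted p under 0.05 in limma. The share of all genes at that cutoff is not given, so these counts are no result about the members. The member level was 8.81 to 9.13 in the 5 controls, 8.92 to 9.24 at 100 ppm, 8.53 to 8.81 at 500 ppm, 8.50 to 8.71 at 2000 ppm, 8.43 to 8.66 at 3000 ppm and 8.35 to 8.93 at 4000 ppm. At 2000 and 3000 ppm every liver was below every control, and at 4000 ppm 1 liver overlapped them.

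Rsad2 had the steepest trend of the members that passed, in the probe set used. At 3000 ppm that probe set differed from controls by -1.24, and the dimmer probe sets of Rsad2 by -0.67 and -0.39. In the probe set used, Rsad2 was at 9.72, 9.36, 8.46, 9.38 and 9.46 in controls, 9.52, 9.64, 9.40 and 9.05 at 100 ppm, and 8.65, 8.30, 9.06 and 9.19 at 500 ppm. It was at 8.96, 8.15, 8.08 and 8.23 at 2000 ppm, 7.68, 8.71, 8.14 and 7.64 at 3000 ppm and 8.38, 8.20, 7.56 and 8.05 at 4000 ppm. The trend was -1.53 ± 0.25 (2.88-fold lower, limma adjusted p = 3e-06). The control liver at 8.46 overlapped 1 liver each at 2000 and 3000 ppm, and no control overlapped the livers at 4000 ppm.

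Igtp, a GTPase of the interferon gamma response, was at 12.04, 11.72, 11.53, 11.72 and 11.34 in controls, 11.10, 11.31, 11.05 and 11.29 at 500 ppm, 10.95, 10.97, 10.95 and 10.83 at 3000 ppm and 11.09, 10.95, 10.72 and 11.10 at 4000 ppm. The trend was -0.83 ± 0.16 (1.78-fold lower, limma adjusted p = 5.9e-05). All livers from 500 ppm upward at these doses were below the lowest control. Rtp4 was at 11.20, 10.98, 10.74, 10.46 and 10.41 in controls, 10.02, 9.80, 9.91 and 9.63 at 2000 ppm, 10.16, 9.85, 9.76 and 9.72 at 3000 ppm and 10.37, 10.28, 9.79 and 9.84 at 4000 ppm (trend -0.84 ± 0.17, limma adjusted p = 0.00015). It did not overlap the controls at any of the 3 highest doses. Ifit1 was at 8.77, 9.06, 8.44, 8.49 and 8.51 in controls, 7.90, 7.50, 7.67 and 8.14 at 500 ppm, 8.29, 7.67, 7.04 and 7.27 at 2000 ppm, 6.95, 7.84, 7.89 and 7.49 at 3000 ppm and 8.26, 7.73, 7.06 and 7.75 at 4000 ppm (trend -1.07 ± 0.26, limma adjusted p = 0.0027). Each dosed liver from 500 ppm on was below the lowest control. Zbp1, a sensor of Z-form nucleic acids (-1.04 ± 0.26, limma adjusted p = 0.0048), Irgm1 (-0.64 ± 0.18, 0.013) and Parp14 (-0.64 ± 0.18, 0.016) also had falling trends.

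**Figure D4:**
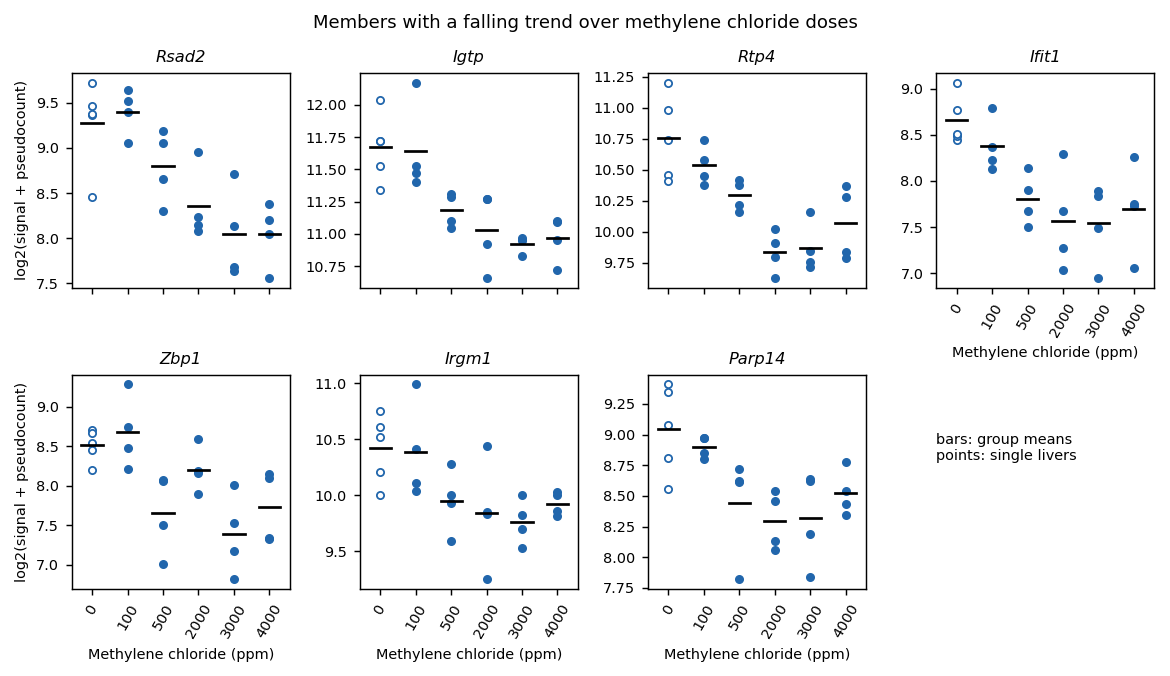
Log2(signal + pseudocount) (y axis) of the 7 members with a falling trend, in each liver at 0, 100, 500, 2000, 3000 and 4000 ppm methylene chloride (x axis, equally spaced); open points are the air controls of set ACO4 and bars group means. In each panel the means at 2000 ppm and above lie below the control mean, and the means do not fall further from 3000 to 4000 ppm.

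By single dose, the members lower at 2000 ppm in limma were Rtp4 (-0.92, adjusted p = 0.0033), Ifi27l2b (-1.55 ± 0.42, 0.032), Irf9 (-0.63, 0.035), Ifit1 (-1.09) and Igtp (-0.64). There Ifi27l2b was between 5.49 and 5.91 in 3 livers and at 7.23 in the other, against 7.58, 7.64, 6.86, 8.19 and 8.01, and Irf9 at 9.31, 9.05, 9.18 and 9.25 against 9.86, 9.80, 9.84, 9.74 and 9.91. Irf9 was without overlap, and 1 liver overlapped for Ifi27l2b. At 3000 ppm these were Rtp4 (-0.88, limma adjusted p = 0.0018), Ifit3 (-0.96 ± 0.22, 0.0034), Rsad2 (-1.24, 0.0039), Igtp (-0.75, 0.0055), Oasl2 (-1.15, 0.0079), Ifit1 (-1.11, 0.014), Zbp1 (-1.13, 0.014), Parp14 (-0.72, 0.028) and Irgm1 (-0.65, 0.042). At 4000 ppm they were Rsad2 (-1.23, limma adjusted p = 0.0034), Igtp (-0.70, 0.0086), Rtp4 (-0.69, 0.019) and Ifit1 (-0.95, 0.045). Ifit3 was at 7.16, 8.16, 8.29 and 7.53 at 3000 ppm against 8.46, 8.73, 8.23, 8.86 and 9.44. Without 3000 ppm replicate 3 the limma adjusted p of Oasl2 was 0.2. Rtp4, Igtp and Ifit1 were lower at each of the 3 highest doses, against the same 5 controls.

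Of 50 other interferon-stimulated genes, 8 had a falling and 1 a rising trend with methylene chloride. Ifi47, a GTPase (-1.12, limma adjusted p = 2.4e-06), Irgm2 (-0.83), Trim34a (-0.79) and Trim21 (-0.60) fell, and Ifi203 rose (0.90). The factor Irf5 (-0.78), the peptide loading gene Tapbp (-0.62) and the acute phase gene Saa1 (-2.05 ± 0.53, limma adjusted p = 0.0058) fell too, and no leukocyte marker passed the trend test. The Kupffer cell level was 10.08 to 10.43 in controls and 9.80 to 9.93 at 3000 ppm (1 of 12 markers above 0, none called), and 9.98 to 10.88 at 4000 ppm, and its part was not tested. RNA integrity numbers were 8.9 to 9.1 in controls, 8.7 to 8.9 at 100 ppm and 9.1 to 9.3 at 500 ppm. They were 8.9 to 9.2 at 2000 ppm, 9.1 to 9.3 at 3000 ppm and 9.1 to 9.2 at 4000 ppm. The part of RNA quality was not tested either. Leaving out 1 array gave 6 to 9 trends, and without the controls, over the 5 doses alone, Rsad2 and Igtp passed. In single doses, fitting the 2 groups alone left no call at 2000, 3000 or 4000 ppm, with 15, 12 and 11 members at an unadjusted p under 0.05.

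Naphthalene gave the members an unequal course over its doses: Ifi35 was higher at 0.5 and 3 ppm, Oasl1 was higher at 0.5 ppm, and 4 other members had a falling trend. At 0.5 ppm 2 members were higher (0.863% of genes) and none lower (1.63%), and at 3 ppm 1 was higher (1.22%) and 1 lower (2.92%). Ifi35, an interferon-induced leucine zipper protein, was at 13.09, 13.21, 12.75 and 12.94 at 0.5 ppm and 12.91, 13.08, 13.23 and 13.05 at 3 ppm, against 11.78, 12.36, 12.17, 12.53 and 12.95 in air set ACO5 (0.64, limma adjusted p = 0.016, and 0.71, 0.0055). One control overlapped both groups. Oasl1 was at 9.83, 9.69, 9.01 and 9.19 at 0.5 ppm against 8.75, 9.05, 8.33, 8.88 and 8.38 (0.75, limma adjusted p = 0.032), and Oas3 at 5.47, 5.76, 5.13 and 5.42 at 3 ppm against 6.12, 7.66, 6.51, 7.40 and 5.84 (-1.26, 0.044). Oas3 did not overlap its controls, and each of these 2 calls was lost in at least 5 of 9 fits that left out 1 array. At 10, 20 and 30 ppm no member was called (0.22%, 0.0934% and 0.0% of genes higher and 0.467%, 0.0385% and 0.0% lower), with 7, 6 and 12 members at an unadjusted p under 0.05 in limma. Nearest were Irgm1 (-0.67, adjusted p = 0.074) at 10 ppm, Irf9 (-0.52, 0.28) at 20 ppm and Stat2 (-0.63, 0.32) at 30 ppm.

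The naphthalene trend fell in 32 of 34 members (median -0.50, all genes -0.01) and passed in 4, where 12 genes (0.066%) had a falling and 5 (0.0275%) a rising trend. Irf9 was at 10.02, 9.99, 9.72, 10.18 and 10.01 in controls, 10.35, 9.94, 9.63 and 9.94 at 0.5 ppm, 9.61, 9.77, 9.54 and 9.38 at 10 ppm, 9.83, 9.24, 9.29 and 9.50 at 20 ppm and 9.84, 9.02, 9.34 and 9.26 at 30 ppm (trend -0.71 ± 0.15, limma adjusted p = 0.017). At 20 and 30 ppm 1 liver each reached the control range. Ifi27l2a was at 9.08, 9.53, 8.63, 8.44 and 8.83 in controls and at 8.57, 7.26, 8.15 and 7.39 at 30 ppm (trend -1.03 ± 0.23, limma adjusted p = 0.032). Psmb9 was at 9.53, 10.24, 10.00, 10.71 and 10.24 in controls, 10.75, 10.83, 10.32 and 10.34 at 0.5 ppm and 9.77, 9.33, 9.70 and 9.62 at 30 ppm (trend -0.78 ± 0.17, limma adjusted p = 0.025). Its lowest control was below 3 of the 4 livers at 30 ppm, and the 4 livers at 0.5 ppm were above 4 of the 5 controls. Xaf1 was at 8.99, 9.19, 8.88, 9.52 and 9.39 in controls and at 8.60, 8.48, 8.44 and 8.32 at 30 ppm (trend -0.79 ± 0.19, limma adjusted p = 0.046), where it did not overlap them.

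Kupffer cell markers moved with these genes: the level of 12 markers was 10.08 to 10.61 in controls and 9.72 to 9.98 at 30 ppm, 0 of 12 trends were above 0, and Clec4f, the Kupffer cell lectin, fell (-0.61 ± 0.10, limma adjusted p = 0.0005). Saa1 (-2.37, limma adjusted p = 0.026) and Irf5 (-0.85, 0.048) fell as well. RNA integrity numbers were 8.5 to 8.9 in controls, 9.2 at 0.5 and 3 ppm, 9.1 to 9.3 at 10 ppm, 8.4 to 8.7 at 20 ppm and 8.5 to 8.6 at 30 ppm. The part of these in the trends was not tested. Leaving out 1 array at a time gave 0 to 5 member trends, the 5 doses without controls gave 12, and the values at their deposited scale gave none.

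1,2,3-Trichloropropane lowered 3 members at 40 mg/kg and none at the other doses, and 2 members had a falling trend. The background was 0.813% of genes lower at 40 mg/kg and 0.363% with a falling trend. Oas1a was at 8.94, 8.94, 9.62, 9.55 and 9.56 in the corn oil set CCO6, 9.70, 9.69, 9.56 and 9.05 at 2 mg/kg, 8.43, 8.67, 9.03 and 8.20 at 40 mg/kg and 8.77, 8.29, 8.65 and 8.42 at 60 mg/kg (trend -0.98 ± 0.21, limma adjusted p = 0.003). The 4 livers at 60 mg/kg were below every control. Psmb9 was at 10.08, 10.29, 10.80, 10.55 and 10.20 in controls, 9.52, 9.57, 9.27 and 9.38 at 40 mg/kg and 10.01, 9.58, 10.05 and 9.32 at 60 mg/kg (trend -0.79 ± 0.17, limma adjusted p = 0.0039). It did not overlap the controls at either dose. At 40 mg/kg Psmb9 was lower by -0.95 (limma adjusted p = 0.0036). Ifi35 was at 11.88, 11.98, 11.71 and 11.80 against 12.36, 12.14, 12.57, 12.58 and 12.66 (-0.62 ± 0.17, limma adjusted p = 0.035), and Dhx58, a regulator of MDA5, at 7.68, 8.05, 6.90 and 7.42 against 8.31, 8.16, 8.34, 8.48 and 8.37 (-0.82 ± 0.23, 0.041). Neither overlapped its controls. At 2, 6 and 20 mg/kg limma called none (0.0275%, 0.214% and 0.033% of genes lower), with 0, 0 and 2 members at an unadjusted p under 0.05. At 60 mg/kg limma called none (0.22% of genes lower), with 4 at an unadjusted p under 0.05, Oas1a (-0.79, adjusted p = 0.12) and Psmb9 (-0.64, 0.13) first. Both trends remained in each of 25 fits that left out 1 array. At 40 mg/kg Psmb9 alone kept its call in all 9 such fits. Of the other interferon-stimulated genes Slfn2 fell at 40 mg/kg (-1.40 ± 0.29, limma adjusted p = 0.0025).

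1,4-Dichlorobenzene lowered Rsad2 and Ifit1 at 300 mg/kg and Ifit1 at 400 mg/kg, where 1.26% and 0.148% of genes were lower. Rsad2 was at 8.85, 8.72, 8.23 and 7.94 at 300 mg/kg against 9.81, 10.10, 10.10, 9.69 and 9.30 in set CCO5 (-1.36 ± 0.29, limma adjusted p = 0.0021). The groups did not overlap. Ifit1 was at 8.41, 7.52, 7.31 and 7.40 at 300 mg/kg and 7.86, 6.63, 7.24 and 8.38 at 400 mg/kg against 8.45, 9.27, 8.74, 8.52 and 8.31 (2.0-fold lower, limma adjusted p = 0.042, and 2.2-fold lower, 0.044). One liver at each dose reached the controls, and each of these Ifit1 calls was lost in 6 of 9 fits without 1 array. At 100, 500 and 600 mg/kg and in the trend limma called no member (0.0385%, 0.242%, 0.17% and 0.308% of genes lower), with 1, 6, 5 and 6 at an unadjusted p under 0.05. The Kupffer cell level at 300 mg/kg was 10.29 to 10.89, against 9.98 to 10.52 in the controls, and with the mean of all probe sets of a gene neither Rsad2 nor Ifit1 was called.

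Malathion at 14800 ppm lowered Stat2 and Parp14 (2 of 34 members or 5.88%, where 2.01% of genes were lower and 2.36% higher). Stat2, a subunit of ISGF3, was at 8.17, 8.27, 8.40, 8.02 and 8.52 in 5 treated livers against 8.75, 8.64, 9.13 and 8.88 in set FCO2 (-0.64 ± 0.18, limma adjusted p = 0.031). Parp14, an ADP-ribosyltransferase, was at 8.75, 8.39, 8.48, 8.30 and 8.56 against 9.54, 9.50, 9.23 and 9.27 (-0.87 ± 0.25, limma adjusted p = 0.032). Neither gene overlapped between the groups, and the estimates include the 2 run codes of run A as a block. Each call was lost in 6 of 9 fits that left out 1 array. The antigen presentation gene H2-K1 (-0.68, limma adjusted p = 0.012), Uba7, the enzyme that activates ISG15 (-0.95, 0.031), Trim34a (-0.79, 0.039) and Cxcl9 (-1.32, 0.046) fell with them, and the kinase Ikbke (2.20, 0.00055) and the acute phase gene Orm2 (3.01, 0.025) rose. The member level was 8.06 to 8.66 with malathion and 8.70 to 8.96 in controls, without overlap. The Kupffer cell level was 8.89 to 10.20 against 9.75 to 10.52 (2 of 12 markers above 0, none called), RNA integrity numbers were 4.7 to 6.5 against 6.7 to 7.2, and their part was not tested.

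Iodoform at 93 mg/kg raised 1 member, Ifi27l2b, and no other (0.0605% of genes higher, none lower). It stood at 9.78, 9.95, 9.87 and 9.25 against 7.66, 8.39, 7.34 and 7.67 in set CCO4 (1.95 ± 0.30, limma adjusted p = 0.0013), and the call was kept in all 8 fits without 1 array. Its neighbour and close relative Ifi27l2a was 0.51 higher and not called, and the median over members was -0.04. The probe set of Ifi27l2b carries Affymetrix's mark for probes that may bind other transcripts. Members of the Oas, Ifit, Gbp and Ifi27l2 families have near-identical relatives, so their probe sets may read more than 1 gene.

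Outside pentachloronitrobenzene, the highest member levels belonged to 4 single livers. They are described because of that level, so the members' own values are no test. In 1,2-Dibromoethane replicate 3 (member level 10.74), 31 of 34 members were above the other 3 livers of the group, against 33.5% of all genes, with a median difference of 2.10. Ifit1 was at 11.49 against 6.32 to 7.51 and Rsad2 at 12.20 against 8.36 to 8.75. All 12 Kupffer cell and 5 neutrophil markers were above the other livers as well, S100a8, a neutrophil calcium-binding protein, at 14.96 against 7.17 to 8.02 and the macrophage receptor Marco at 13.32 against 5.35 to 7.06. In control CCO3 replicate 2 (9.99), 31 members were higher than in the other 3 livers (31.3% of genes), with a median of 1.10, Ifi27l2a at 11.92 against 8.71 to 9.29, 12 of 12 Kupffer cell markers (Marco at 13.68 against 7.18 to 8.32) and 4 of 5 neutrophil markers (S100a8 at 14.24 against 6.51 to 9.76). Of 6 monocyte and dendritic cell markers, 2 were above the other livers in 1,2-Dibromoethane replicate 3 and 4 in CCO3 replicate 2. The median differences of that list were 0.05 and 0.2. Most lymphocyte markers were higher in both livers. Ighm, the heavy chain of IgM, was at 13.60 against 8.58 to 9.11 in the first and 14.30 against 7.55 to 10.91 in the second, with 5 and 6 of 7 B and plasma cell and 10 and 11 of 13 T and NK cell markers above the other livers.

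In the other 2 livers no neutrophil marker was above those of the group. In propylene glycol mono-t-butyl ether 300 ppm replicate 3 (9.70), 22 members were above the other 3 livers (28.8% of genes), with Gbp3 at 9.55 against 6.30 to 8.53 and Ifit1 at 10.14 against 7.80 to 8.47. There 1 of 12 Kupffer cell and 0 of 5 neutrophil markers were higher. All 8 hepatocyte markers were higher in this liver (median difference 0.36), as were 4 of 7 B and plasma cell and 4 of 13 T and NK cell markers. In Tris(2,3-dibromopropyl)phosphate replicate 1 (9.58), 25 members were higher (26.3% of genes), with Mx1 at 7.32 against 4.50 to 6.00 and Usp18 at 10.28 against 8.29 to 9.43. There 4 of 12 Kupffer cell, 0 of 5 neutrophil and 7 of 11 acute phase markers were higher. The same held for 5 of 7 B and plasma cell, 7 of 13 T and NK cell and 0 of 8 hepatocyte markers. None of these groups had a called member.

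**Figure D5:**
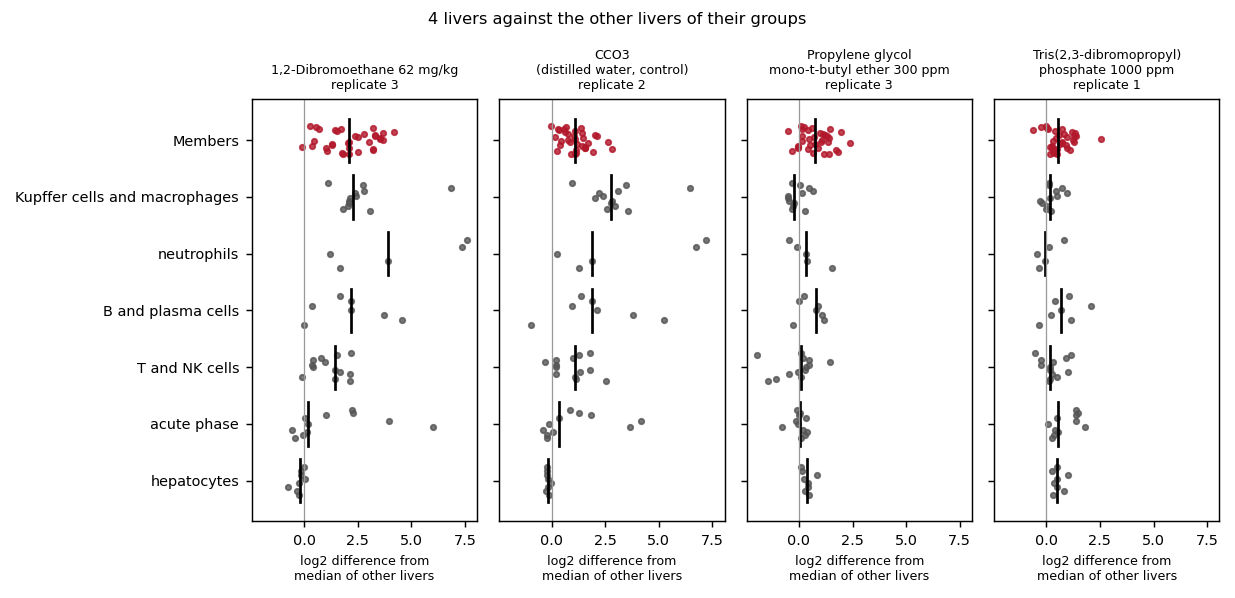
Log2 difference of each gene from the median of the other 3 livers of the group (x axis), for the members and 6 marker lists (y axis), in the 4 livers of high member level; points are genes and vertical ticks list medians. In the first 2 livers macrophage and neutrophil markers lie above 0 together with the members, and in the last 2 the members lie above 0 while the medians of these 2 lists lie between -0.24 and 0.32.

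In the other 33 treated groups limma called no member. They include all 5 doses of propylene glycol mono-t-butyl ether, whose trend had 2 members at an unadjusted p under 0.05 and Irf7 first (0.40, limma adjusted p = 0.36; 0.0495% of genes falling, 0.203% rising). Coumarin (0.275% of genes higher and 0.0824% lower), tetrafluoroethylene (0.17% and 0.0385%) and 4-nitroanthranilic acid (0.066% and 0.044%) changed genes without a member among them, with 1, 2 and 1 members at an unadjusted p under 0.05. In 9 groups no gene at all was called, so they bear on the members no further.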

How the data were processed

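Liver RNA of 242 mice was measured on 1 array each. Per the labels, values were scaled with the array software, named as GCOS 1.0 in the submitters' processing notes. The deposited table holds linear signal intensity for 45101 probe sets, and no other step is given in the sources used here. In 2 arrays the trimmed mean (2% at each end) was far below the common 500, and they were multiplied to reach it (factors 3.368 and 5.915). Median signal per array was 69.4 to 137, and the number of arrays limits the precision. No 2 arrays held identical values.

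Probe sets with 1 gene symbol in the platform annotation (34945) were used, with the highest mean per gene, giving 18193 genes; 10092 probe sets with several or no symbols were left out. Signals were tested as log2(signal + 17.3) with limma 3.58.1 in R 4.3.3, per run, with 1 mean per group and run code as a block in run A. Calls needed an adjusted p under 0.05 and a fold of at least 1.5 (the F test between control sets an adjusted p only), and ± is the standard error of limma's coefficient. Doses entered trends as ranks. The procedure was tested on simulated data. Figures used matplotlib 3.10.9. Each array is a separate mouse, but cage and litter are not given.

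In each comparison up to 10 called members with the lowest adjusted p were named (all called ones where calls were most), with arrays of the first 4 or 8, and 2 members where none was called. Members and lists were chosen with earlier results of these data known. Alternatives covered the pseudocount, dim genes, probe set choice, normalization, controls, the run block and left-out arrays.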

Additional observations from a re-analysis of the deposited data

Results flagged for a closer look

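The gap of the highest or lowest array to its nearest neighbour, divided by the range of the group (Dixon's ratio), was examined for 142 groups of 4 or 5 arrays and passed the 95% critical value in 8; chance passes about 1 in 20 groups. The member level was high in 1,2-Dibromoethane replicate 3 (10.74), propylene glycol mono-t-butyl ether 300 ppm replicate 3 (9.70) and methylene chloride 2000 ppm replicate 1 (8.71), and low in 1,2,3-Trichloropropane 40 mg/kg replicate 4 (8.53). Igtp was high in methylene chloride 100 ppm replicate 1 (12.17) and low in 3000 ppm replicate 4 (10.83), Psmb9 was high in naphthalene 3 ppm replicate 4 (10.91), and Rsad2 was low in air control ACO4 replicate 3 (8.46).

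Chemicals given in the same chow differed directly. In limma 21 members differed between pentachloronitrobenzene and 1,5-naphthalenediamine, and 15 between pentachloronitrobenzene and N-(1-naphthyl)ethylenediamine dihydrochloride, all higher with pentachloronitrobenzene.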

How the results depend on the processing

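Counts of called members moved by over 1.5 times as follows, in each case with "from" giving the reported count. With the groups compared alone, 0 members were called with pentachloronitrobenzene (from 13), 1,5-naphthalenediamine (from 5), 2,3-benzofuran (from 6), iodoform (from 1), 1,2,3-trichloropropane 40 mg/kg (from 3), 1,4-dichlorobenzene 300 and 400 mg/kg (from 2 and 1), methylene chloride 2000, 3000 and 4000 ppm (from 5, 9 and 4) and naphthalene 0.5 and 3 ppm (from 2 and 2). Pentachloronitrobenzene over 1,5-naphthalenediamine had 5 (from 21), and over N-(1-naphthyl)ethylenediamine dihydrochloride 0 (from 15). Such fits have fewer arrays to estimate the spread. With values at their deposited scale the counts were 0 for pentachloronitrobenzene against controls and against N-(1-naphthyl)ethylenediamine dihydrochloride, 2,3-benzofuran, 1,4-dichlorobenzene 400 mg/kg, methylene chloride 2000 ppm, naphthalene 0.5 ppm and the naphthalene trend (from 4), and 1 for 1,2,3-trichloropropane 40 mg/kg, 1,4-dichlorobenzene 300 mg/kg, methylene chloride 4000 ppm and naphthalene 3 ppm. With the mean of all probe sets they were 0 for malathion (from 2) and 1,4-dichlorobenzene 300 and 400 mg/kg, 3 for 1,5-naphthalenediamine and 2,3-benzofuran, 1 for methylene chloride 2000 ppm and naphthalene 0.5 and 3 ppm, and 2 for methylene chloride 4000 ppm; Tap1 with pentachloronitrobenzene reversed to -0.22 (limma adjusted p = 0.74), as its dimmer probe sets differ in sign. With dim genes left out they were 8 for 1,5-naphthalenediamine, 12 for 2,3-benzofuran, 2 for N-(1-naphthyl)ethylenediamine dihydrochloride (from 0) and 1 for naphthalene 3 ppm and 10 ppm (from 0). With a pseudocount of 69.3 they were 1 for malathion, 10 for 2,3-benzofuran and 2 for N-(1-naphthyl)ethylenediamine dihydrochloride, and with one of 4.33 it was 1 for naphthalene 3 ppm. Quantile normalization gave 1 for malathion, 1,4-dichlorobenzene 300 mg/kg and naphthalene 0.5 and 3 ppm, and 0 for 1,4-dichlorobenzene 400 mg/kg. Pooled control sets gave 1 for 1,2,3-trichloropropane 40 mg/kg, 4 for naphthalene 3 ppm, and 2 for methylene chloride 500 ppm and naphthalene 10 and 30 ppm (each from 0). Without the run code block malathion had 1. Over the dosed groups alone the methylene chloride trend had 2 (from 7) and the naphthalene trend 12. Among alternatives chosen after seeing the data, leaving out the 4 arrays of high member level gave 6 for malathion, and leaving out the rescaled arrays gave 2 for 1,5-naphthalenediamine and 13 for pentachloronitrobenzene over it. Apart from what is stated above, the cause was not tested.

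Leaving out 1 array at a time gave 0 to 2 calls for malathion, 2 to 8 for 1,5-naphthalenediamine, 2 to 5 for 2,3-benzofuran, 0 to 1 for N-(1-naphthyl)ethylenediamine dihydrochloride and 8 to 11 for pentachloronitrobenzene (13 to 21 and 9 to 11 over the other chow chemicals). It gave 1 to 4 for 1,2,3-trichloropropane 40 mg/kg and 2 to 4 for its trend, 1 to 4 and 0 to 1 for 1,4-dichlorobenzene 300 and 400 mg/kg, and 0 to 1, 1 to 6, 5 to 11 and 1 to 5 for methylene chloride 500, 2000, 3000 and 4000 ppm (trend 6 to 9). For naphthalene 0.5, 3 and 10 ppm it gave 0 to 2, 0 to 4 and 0 to 1 (trend 0 to 5). In the other comparisons counts stayed at their reported value. Of single members' called values, 1438 kept direction and call, 495 kept direction without the call and 1 reversed. No paired analysis was possible because no animal number in the labels occurs in more than 1 mouse of a run, so none links mice of the groups compared. Groups of 3 to 5 arrays limit what can be detected, and dim members such as Oas3 and Ifit2 limit it further.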
